A study of Homo sapiens with 18 samples.

Results

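The comparison described here is the early interval of the etoposide arm of an RNA stability experiment: 3 libraries labelled ETOP and time point 20 against 3 libraries labelled ETOP and time point 0, that is 6 of the 18 libraries of the series, taken by their titles. All 6 came from the single line hTERT RPE-1, telomerase-immortalised pigment epithelium of the human retina, which the labels place in G0/G1. Cells grown in 10% serum were kept for 48 h in 0.1% serum, treated for 30 min with 50 µM etoposide, and collected at several times under 10 µM triptolide. The other arm, which the titles call DMSO, had no etoposide and the same time points, and each arm also had a time point 40. The labels give neither the unit of the time points nor whether triptolide had been added at 0. Each group held 3 samples described as independent replicates and numbered 1 to 3.

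Triptolide stops transcription by binding XPB, a subunit of the general factor TFIIH, so that RNA already made decays without being replaced. Messages with AU-rich elements in the 3′ untranslated region, many of them from growth factor and stress response genes, are bound by proteins of the ZFP36 family, which recruit deadenylases and shorten the life of the RNA. Etoposide traps topoisomerase II on cleaved DNA and so activates DNA damage signalling, including p53 and its targets.

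Sequences that carry the element are shown for 8 genes of this report, because the AU-rich element is one feature by which messages differ in their stability. Each is 30 bases of the 3′ untranslated region in GENCODE release 29 transcripts (build GRCh38), read along the transcript, with the heptamer TATTTAT in capitals. Copies of the heptamer can overlap, as in SOCS3, and the transcript strand was the only one searched.
ZFP36L1: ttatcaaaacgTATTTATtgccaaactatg
ZFP36: aatgggcccttTATTTATgacgactttatt
SOCS3: aactttgcacaTATTTATATTTATattcag
CDKN1B: aagataattgcTATTTATttttacaagaag
FOS: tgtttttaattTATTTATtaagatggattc
HBEGF: cttaaattataTATTTATtttattctatgt
EIF4A1: gttttgtatagTATTTATtgattcaggaaa
ZCCHC3: ttctgaataaaTATTTATcttttgtattgc

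These windows lie at chr14:68788335-68788364 on the minus strand for ZFP36L1, chr19:39409181-39409210 on the plus strand for ZFP36 and chr17:78356831-78356860 on the minus strand for SOCS3. CDKN1B has its window at chr12:12721533-12721562 on the plus strand, FOS at chr14:75282060-75282089 on the plus strand and HBEGF at chr5:140333677-140333706 on the minus strand. For EIF4A1 the window is chr17:7578938-7578967 on the plus strand, and for ZCCHC3 it is chr20:300287-300316 on the plus strand. The untranslated regions used hold 3 copies in ZFP36L1 and in ZFP36, 2 copies in SOCS3, CDKN1B, FOS and HBEGF, and 1 copy in EIF4A1 and in ZCCHC3. Among all tested protein-coding genes, 4128 of 12163 untranslated regions (33.9%) held the heptamer, and 1181 of the 8888 with at least 500 bases (13.3%) held it within their first 500 bases. A match describes these letters and says nothing of whether a protein binds there.

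The counts per library summed to 7957691 to 11580219, so that the floor of 3 counts lay at 0.255 to 0.374 CPM, the unit of level used throughout, which scales each library to a normalised total of 1e6. A CPM value is relative to the other RNAs of its library, and in bulk samples fewer cells of a type and less RNA per cell cannot be told apart. Of 16 marker genes of retinal pigment epithelium, 9 passed the filter on low counts. The summed level of all 16 was 85.6 to 117 CPM at 20 and 115 to 119 CPM at 0. The other sums given here also cover all members of their lists. TYR, DCT, TTR and SLC16A8 were at 0 counts in these libraries, and none of 10 blood cell markers passed the filter. Fibroblast markers, 8 of 11 tested, summed to 679 to 989 CPM at 20 and 739 to 1006 CPM at 0. Markers of other epithelia, 3 of 10 tested, summed to 908 to 1822 CPM at 20 and 920 to 1706 CPM at 0, with KRT5, CDH1 and KRT20 at 0 counts. Most of that sum was KRT8 and KRT18, at 740 and 588 CPM in replicate 1 of time point 20, where MUC1 had 14.5 CPM. CPM are not scaled to gene length, so these sums do not rank the cell types. Replicate 3 stood apart in all groups, with 0 counts of 44 protein-coding genes that were measured in the other replicates. Of all 18 libraries, the second one of time point 20 detected the fewest genes, 17854 against 18344 in the next, and its correlation with the libraries of its own number was 0.411 to 0.657.

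Between time point 20 and time point 0 of the etoposide arm no gene passed the test. All 18 libraries entered one edgeR quasi-likelihood model with the 6 groups and the replicate number as a block, p-values were adjusted over 14186 genes by the Benjamini-Hochberg method, and genes with an adjusted p below 0.05 were called. Lower calls numbered 0 (0%) and higher calls 0 (0%), and the smallest adjusted p from edgeR was 0.152. At an unadjusted p below 0.05 there were 387 genes (2.73%), of which 270 were lower at 20 (1.9%) and 117 were higher (0.825%). Scaling the libraries to housekeeping and ribosomal protein genes gave 419 lower and 37 higher genes at the same level. The median log2 difference of all genes was 0.00107, or −0.073 with that scaling.

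The precision of the design sets what could be seen. For genes with a mean of 5 CPM or more in the 6 libraries, the 95% interval of a log2 difference reached 0.28 to either side at the median gene, and for genes below 5 CPM it reached 0.89. Among 10814 genes of 5 CPM or more, 192 had all 3 values at 20 below all 3 at 0 (1.78%), and 104 had all 3 above (0.962%). Over the next interval, etoposide 40 against 20, 69 genes fell (0.486%) and 0 rose (0%). Over both intervals together, 40 against 0, 143 genes fell (1.01%) and 0 rose (0%). These comparisons share libraries with the early one and are given beside it for their own values. Whether the early and the late interval differed from each other was not tested.

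**Figure D1:**
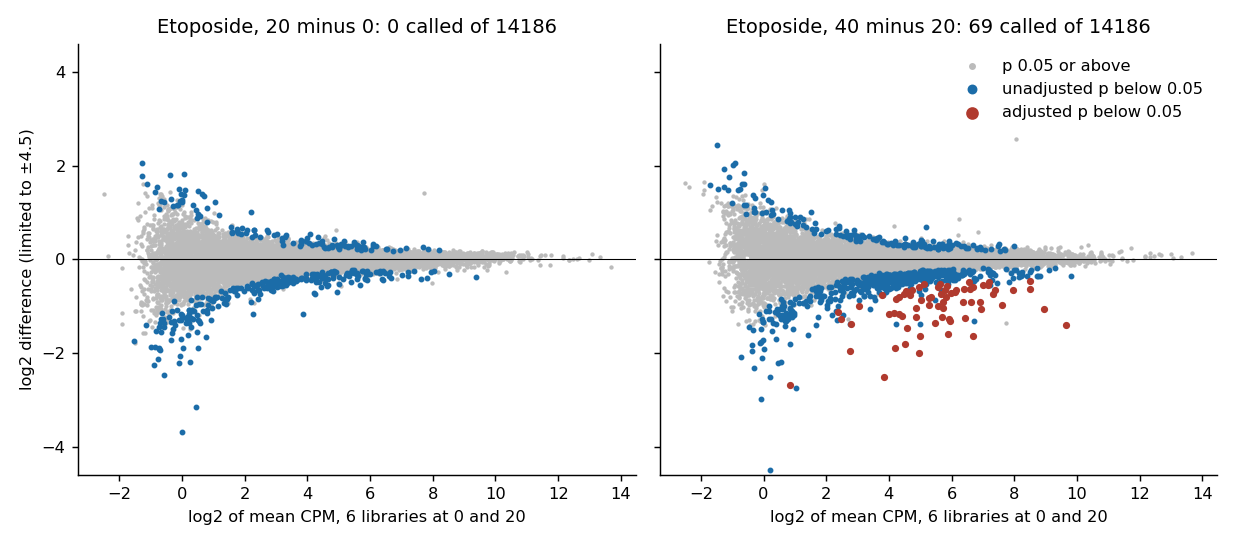
Log2 difference per gene against log2 mean CPM for 14186 genes, etoposide 20 minus 0 on the left and etoposide 40 minus 20 on the right. Blue points have an unadjusted p below 0.05 and red points an adjusted p below 0.05 by edgeR; there are 0 red points on the left and 69 on the right, all below 0.

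The ZFP36 family, whose proteins bind AU-rich elements and whose own messages carry them, stood lower at 20. ZFP36L1 had 170, 145 and 187 CPM at 20 in replicates 1 to 3, against 252, 230 and 197 CPM at 0. All 3 values at 20 lay below all 3 at 0. The log2 difference was −0.43 ± 0.11 (SE), with an adjusted p of 0.999 by edgeR. ZFP36L2 had 78.5, 67.8 and 112 CPM at 20, against 103, 99.2 and 124 CPM at 0, a log2 difference of −0.36 ± 0.12. ZFP36, at a lower level, had 18.9, 11 and 11 CPM at 20, against 26, 31 and 13.2 CPM at 0, a log2 difference of −0.72 ± 0.27, or −0.41 without the second library of time point 20. In these 2 genes the groups overlapped, but each replicate was lower at 20 than its own partner at 0. From 20 to 40 all 3 genes fell, by 0.96 in ZFP36L1, 0.90 in ZFP36L2 and 1.89 in ZFP36 on the log2 scale, with adjusted p of 5.67e-05, 0.000281 and 0.0033 by edgeR.

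Further members of the early response and AU-rich element lists, most of them those with the smallest p, had lower values at 20, and none was called. SOCS3, the feedback inhibitor of cytokine receptor signalling, had 20.9, 18.7 and 18.7 CPM at 20, against 29.9, 25.1 and 22.5 CPM at 0. ARRDC3, an arrestin-related adaptor, had 50.3, 47 and 54.1 CPM at 20, against 80.9, 61.6 and 64.6 CPM at 0. In both genes the groups did not overlap, and the log2 differences were −0.41 ± 0.16 and −0.45 ± 0.14. ADM, which encodes the vasodilator peptide adrenomedullin, had 108, 70.9 and 86.3 CPM at 20, against 129, 116 and 103 CPM at 0, with a log2 difference of −0.39 ± 0.13, or −0.24 without the second library of time point 20. TRIB1, a pseudokinase, had 32.8, 23.5 and 22.4 CPM at 20, against 40.5, 45.7 and 27.4 CPM at 0. Its log2 difference was −0.52 ± 0.19 and its groups overlapped. TXNIP, an inhibitor of thioredoxin and of glucose uptake, had 284, 191 and 187 CPM at 20, against 388, 224 and 205 CPM at 0.

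DDIT4 had the second smallest p among genes of 5 CPM or more. It encodes REDD1, an inhibitor of mTORC1 that is induced by several stresses. Its levels were 34.8, 26.1 and 9.72 CPM at 20, against 40.6, 58.3 and 16.5 CPM at 0. Replicate 3 was low at both time points, so that the groups overlapped, and every replicate was lower at 20 than at 0. The log2 difference was −0.70 ± 0.16, with an adjusted p of 0.722 by edgeR; without the second library of time point 20 it was −0.44, and without the filter on low counts the gene was called, with an adjusted p of 0.042 by edgeR. CDKN1B, the gene of the cyclin-dependent kinase inhibitor p27 that holds cells in G1, had 70.8, 49.8 and 92.5 CPM at 20, against 97.9, 78.3 and 105 CPM at 0. Each replicate was again lower at 20, and the log2 difference was −0.43 ± 0.13. From 20 to 40 both genes fell, DDIT4 to 7.64, 8.04 and 2.33 CPM and CDKN1B to 33.2, 34.8 and 43.2 CPM, with adjusted p of 2.03e-06 and 0.000517 by edgeR.

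The group values of MYC, JUN and FOS overlapped. MYC, the growth-promoting transcription factor, had 40.6, 33.9 and 56.9 CPM at 20, against 38.8, 38.9 and 59.2 CPM at 0. These values overlapped throughout, with a log2 difference of −0.06 ± 0.13 whose 95% interval ran from −0.33 to 0.20. From 20 to 40 MYC fell by 1.36 on the log2 scale, with an adjusted p of 3.71e-06 by edgeR. JUN, a subunit of the AP-1 factor, had 156, 164 and 106 CPM at 20, against 145, 264 and 119 CPM at 0, and was higher at 20 in replicate 1 only, with a log2 difference of −0.25, or −0.09 without the second library of time point 20. FOS, another AP-1 subunit, had 19.5, 15.4 and 5.23 CPM at 20, against 26.6, 40.3 and 5.69 CPM at 0. Its log2 difference was −0.73 ± 0.34, or −0.54 ± 0.44 without the second library of time point 20. Most of the FOS difference lay in replicate 2.

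**Figure D2:**
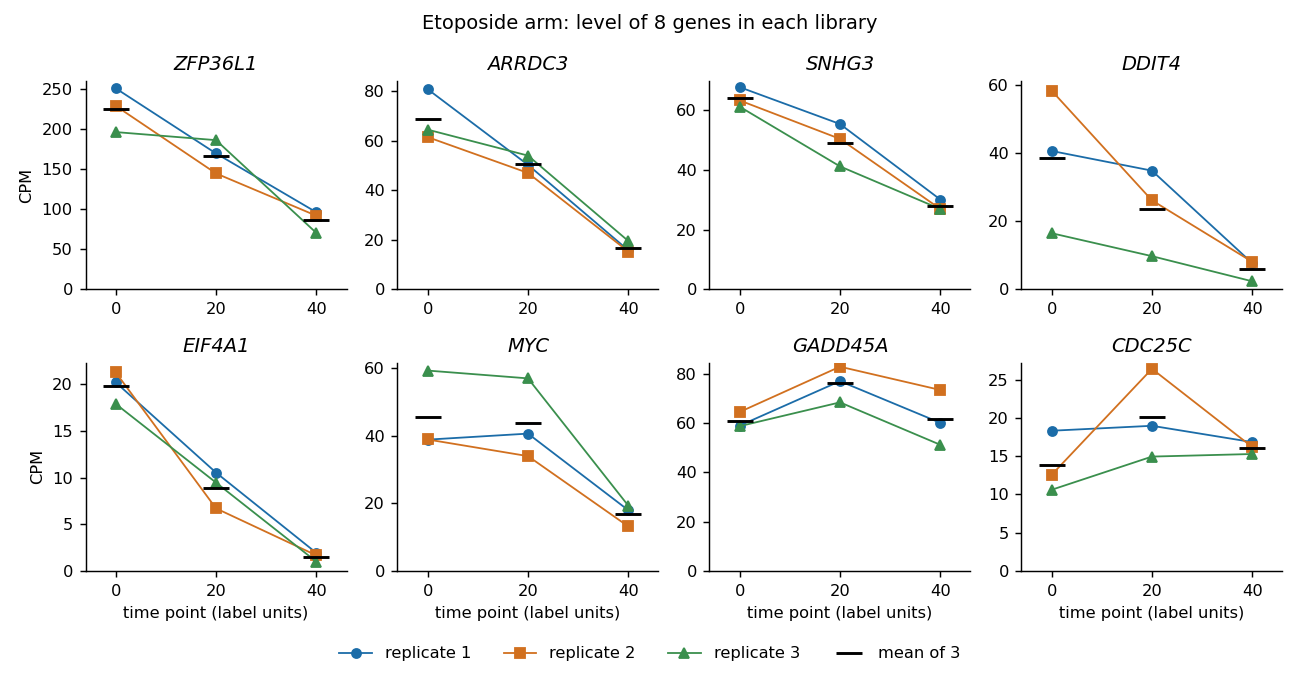
CPM of 8 genes at time points 0, 20 and 40 of the etoposide arm, 1 line per replicate and a bar for the mean of 3 libraries. ZFP36L1, ARRDC3, SNHG3 and EIF4A1 have 3 values at 20 below those at 0, MYC overlaps between 0 and 20 and is lower at 40, and GADD45A has 3 values at 20 above those at 0.

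As a list, early response genes gave 8 of 58 members lower and 1 higher at an unadjusted p below 0.05, with 0 called, beside 1.9% and 0.825% of all tested genes, and a median log2 difference of −0.10; 39 of the 58 were below 0. Of all tested genes, 7051 of 14186 (49.7%) were below 0. From 20 to 40 the median of the early response list was −0.49 and 19 of its members fell, beside 0.486% of all tested genes. The 44 genes of the AU-rich element list had a median of −0.05 at 20 against 0, with 6 lower and 0 higher at an unadjusted p below 0.05. The 24 NF-kB targets had a median of −0.15, with 1 lower and 0 higher. That member, the cytokine gene IL6, had 3.02, 2.17 and 0.747 CPM at 20, against 4.82, 4.02 and 1.44 CPM at 0.

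Replicate pair 2 had the lowest medians of these 3 lists. Measured within pairs, as the difference of log2(CPM + 0.5), the early response list had medians of 0.01, −0.29 and −0.03 in pairs 1 to 3. The NF-kB targets had 0.10, −0.52 and −0.10, and the AU-rich element list had −0.00, −0.26 and −0.06. Without the second library of time point 20 the median of the early response list was −0.03, that of the AU-rich element list −0.10 and that of the NF-kB targets −0.08. With housekeeping scaling these medians were −0.18, −0.12 and −0.22, beside −0.07 for all tested genes.

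**Figure D3:**
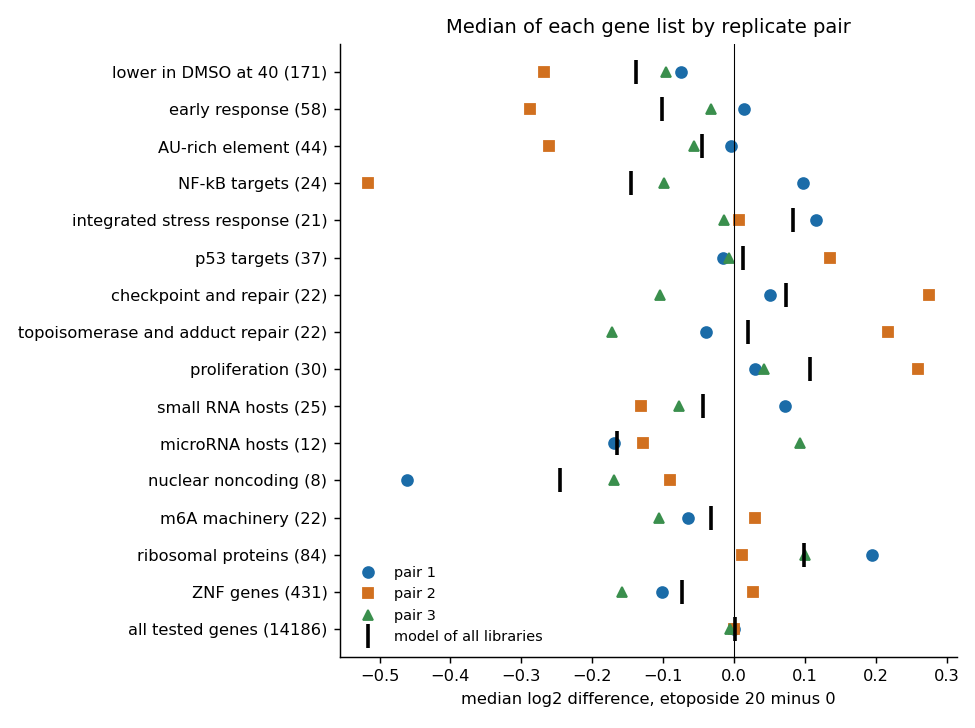
Median log2 difference of each gene list, etoposide 20 minus 0, in replicate pairs 1 to 3 (coloured points) and in the model of all libraries (black bars); the number of tested genes is in brackets. Pair 2 is the lowest for the early response, AU-rich element and NF-kB lists and the highest for the checkpoint and repair, topoisomerase and proliferation lists.

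A list of genes that fell in the DMSO arm was taken from other libraries. In the DMSO arm, 171 genes (1.21%) were lower at 40 than at 0 by the same test, and neither of those groups is part of the etoposide comparison, although all libraries share one estimate of the spread and the replicate numbers. In the etoposide arm, 129 of the 171 were below 0 at 20 against 0 (75.4%, beside 49.7% of all tested genes), and their median log2 difference was −0.14. At an unadjusted p below 0.05, 42 were lower and 2 were higher, beside 1.9% and 0.825% of all tested genes. The medians within pairs 1 to 3 were −0.07, −0.27 and −0.10, all below those of all genes, which were −0.00, 0.00 and −0.01. Of the 171, 58 were lower at 20 in all 3 pairs, beside 1522 of the 14186 tested genes (10.7%). Without the second library of time point 20, 117 of the 171 were below 0 and the median was −0.10.

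Expressed as the level left, the median gene of the 171 held 90.9% of its time point 0 level at 20, with quartiles of 80.9% and 99.6%. Without the second library of time point 20 the median gene held 93.0%. Such levels depend on the scaling. With housekeeping scaling the median log2 difference of the 171 was −0.21, beside −0.07 for all tested genes. The median level left at 40 was 63.0% of that at 20 and 55.7% of that at 0. Of the 171, 170 were below 0 from 20 to 40, beside 51.4% of all tested genes. In the DMSO arm the median left at 20 was 85.6%, a value that shares its time point 0 libraries with the choice of the list. The late intervals likewise share libraries with the early one, so the values stand side by side and no test of their difference was made.

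**Figure D4:**
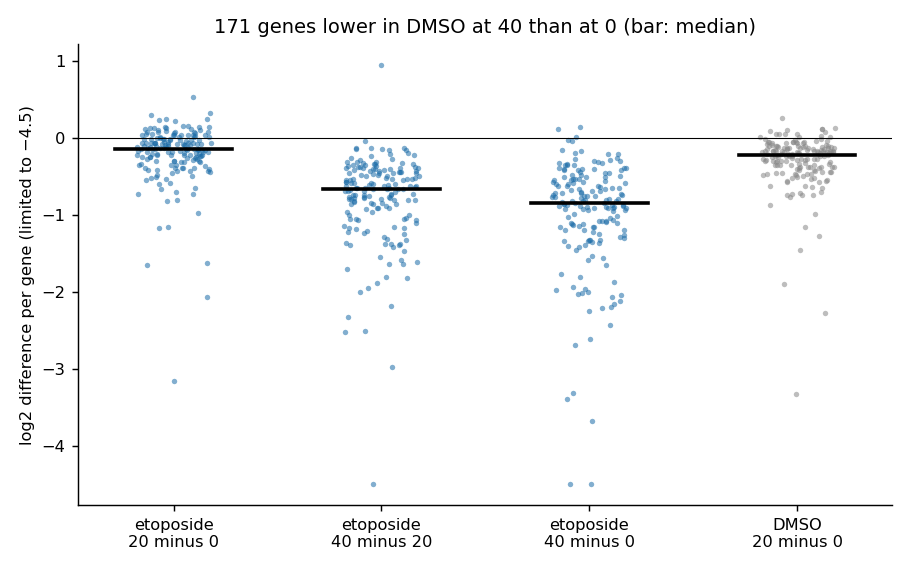
Log2 difference of each of the 171 genes that were lower in DMSO at 40 than at 0, in 3 comparisons of the etoposide arm and in DMSO 20 against 0; black bars are medians. The median is −0.14 for etoposide 20 minus 0 and −0.67 for etoposide 40 minus 20, and most points lie below 0 in both.

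Of the 171, the heptamer TATTTAT was present in 78 of 153 untranslated regions (51.0%) at 0.819 copies per kb, beside 33.9% and 0.330 copies per kb over all tested protein-coding genes; within the first 500 bases the shares were 19.8% and 13.3%. Of the protein-coding genes lower at 20 than at 0 with etoposide at an unadjusted p below 0.05, 76 of 190 untranslated regions held it (40%, 0.407 copies per kb), but within the first 500 bases the share was 10.6%, below that of all genes. Across all genes of 5 CPM or more, the median log2 difference at 20 against 0 was 0.01 for 6773 genes with no copy, 0.00 for 2101 genes with 1 copy, −0.01 for 822 genes with 2 copies and −0.02 for 681 genes with 3 or more. No test of this order was made. The untranslated regions of ARRDC3, ADM, TXNIP, TRIB1, DDIT4 and MAB21L1 that were used held no copy, and HBEGF, with 2 copies, was higher at 20. ARRDC3, ADM and TXNIP are members of the AU-rich element list, in which 31 of 44 untranslated regions held the heptamer.

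EIF4A1 had the smallest p among genes of 5 CPM or more. It encodes a helicase of the eIF4F cap-binding complex. Its levels were 10.5, 6.71 and 9.47 CPM at 20, against 20.2, 21.3 and 17.9 CPM at 0. The groups were well separated, and at 40 the values were 1.93, 1.67 and 0.997 CPM. The log2 difference at 20 against 0 was −1.16 ± 0.21, with an adjusted p of 0.152 by edgeR. Fitted on the 6 libraries alone it was −1.15 ± 0.19, with an adjusted p of 0.0157 by edgeR. Without the second library of time point 20 it was −0.97 ± 0.23, with an adjusted p of 0.719 by edgeR. The gene overlaps the read-through gene SENP3-EIF4A1 and hosts the small nucleolar RNAs SNORD10, SNORA67 and SNORA48, and how reads shared by overlapping genes were counted is not given in the sources used here, so its level is uncertain.

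Some RNAs lying within other genes were lower at 20, 2 of them with few counts. ENSG00000275560, annotated as sense intronic within CDKN1B (chr12:12718973-12719521, GRCh38), had 0.0916, 0.619 and 0.125 CPM at 20, against 2.93, 1.91 and 2.46 CPM at 0. SNORA73B, a small nucleolar RNA within SNHG3, had 0.183, 0.310 and 0.623 CPM at 20, against 1.79, 1.41 and 1.36 CPM at 0. ENSG00000275180, within the microRNA host MIRLET7IHG, had 3.02, 3.30 and 2.49 CPM at 20, against 6.71, 5.22 and 8.32 CPM at 0. The counts at 20 were few, 1, 6 and 1 for ENSG00000275560 and 2, 3 and 5 for SNORA73B. In each of the 3 the groups did not overlap, with fitted log2 differences of −3.15 ± 0.65, −2.06 ± 0.54 and −1.16 ± 0.28. The long noncoding RNA ENSG00000269399 (chr19:16542746-16544814) had 0.183, 0 and 0.249 CPM at 20, against 3.02, 1.31 and 1.27 CPM at 0. All of its values at 20 lay below the floor of 3 counts. In the fit of the 6 libraries alone, ENSG00000275560 and ENSG00000269399 passed the test, each with an adjusted p of 0.0485 by edgeR. Without the second library of time point 20 each had an adjusted p of 0.662 by edgeR.

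Some host transcripts of small RNAs also stood lower at 20. SNHG3, a host of small nucleolar RNAs, had 55.4, 50.5 and 41.2 CPM at 20, against 67.8, 63.4 and 61.3 CPM at 0. SNHG15 had 16.2, 16.3 and 16.1 CPM at 20, against 20.6, 26 and 21.5 CPM at 0. Both had groups that did not overlap, with log2 differences of −0.39 ± 0.10 and −0.49 ± 0.15. SNHG1 had 120, 145 and 80.1 CPM at 20, against 141, 155 and 131 CPM at 0, and the groups overlapped. The list of 25 small RNA hosts had a median of −0.04, and its medians in pairs 1 to 3 were 0.07, −0.13 and −0.08. At an unadjusted p below 0.05, 4 were lower and 1 higher, beside 1.9% and 0.825% of all tested genes. The direction of the median turned without the second library of time point 20, to 0.04, with 12 of the 25 below 0. From 20 to 40 its median was −0.29.

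Among 12 hosts of microRNAs, 3 were lower and 0 higher at an unadjusted p below 0.05, beside 1.9% and 0.825% of all tested genes, with a list median of −0.17. There were 2 lower and 2 higher without the second library of time point 20, and the median was −0.25. MIR23AHG, host of the miR-23a cluster, had 18.8, 18.8 and 13 CPM at 20, against 20.9, 37.6 and 19.6 CPM at 0, groups that did not overlap. MIR222HG, host of miR-221 and miR-222, had 17.1, 22.9 and 18.1 CPM at 20, against 35.8, 22.4 and 25.5 CPM at 0, and its values overlapped. The library kit keeps strand, but whether the counting used it is not given in the sources used here, so reads of MIR23AHG and of the gene it lies antisense to cannot be told apart, and likewise for DDIT4 and ARRDC3 and their antisense transcripts.

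All 8 nuclear noncoding RNAs tested were below 0 in the model, beside 49.7% of all tested genes. In all 3 pairs 4 of the 8 were lower, beside 10.7% of all tested genes. The median of the 8 was −0.25, or −0.31 with housekeeping scaling. At an unadjusted p below 0.05, 1 of them was lower, beside 1.9% of all tested genes. That was NEAT1, the scaffold of nuclear paraspeckles, with 541, 560 and 624 CPM at 20, against 813, 689 and 739 CPM at 0. The groups did not overlap and the log2 difference was −0.38 ± 0.17. NEAT1 had a log2 difference of −0.02 from 20 to 40. MEG3, a maternally expressed noncoding RNA, had 407, 423 and 381 CPM at 20, against 493, 497 and 433 CPM at 0, also without overlap. With DMSO over the same interval 4 of the 8 were below 0, beside 7100 of 14186 tested genes. There NEAT1 and MEG3 had log2 differences of 0.07 and 0.27.

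Some genes of the DNA damage response stood higher at 20. GADD45A, a p53 target that acts in cell cycle arrest and repair, had 77, 82.8 and 68.4 CPM at 20, against 58.9, 64.5 and 58.7 CPM at 0. All 3 values at 20 exceeded all 3 at 0, and the log2 difference was 0.33 ± 0.12. AEN, a p53-induced nuclease, had 53.4, 64.8 and 45.1 CPM at 20, against 42.6, 49.1 and 40.8 CPM at 0, with a log2 difference of 0.29 ± 0.11. CDKN1A, the gene of the cell cycle inhibitor p21, had 251, 260 and 198 CPM at 20, against 192, 269 and 166 CPM at 0. It was higher in replicates 1 and 3 and lower in replicate 2, with a log2 difference of 0.20 ± 0.10. As a list, 37 p53 targets had a median of 0.01, which was −0.06 with housekeeping scaling and −0.00 with library totals alone. At an unadjusted p below 0.05, 3 were higher and 0 lower, beside 0.825% and 1.9% of all tested genes. Without the second library of time point 20 the list median was −0.04. The list then had 3 higher and 2 lower, beside 495 higher and 490 lower of all 14186 genes.

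CDC25C, the phosphatase that activates CDK1 at entry into mitosis, had 19, 26.4 and 14.9 CPM at 20, against 18.3, 12.6 and 10.6 CPM at 0, a log2 difference of 0.54 ± 0.16. Most of this lay in replicate 2, whose value at 20 was the highest of the 6, and without that library the log2 difference was 0.31. HBEGF, the heparin-binding ligand of the EGF receptor, had 26.9, 31 and 13 CPM at 20, against 17.3, 23 and 9.84 CPM at 0. Each replicate was higher at 20, and the log2 difference was 0.49 ± 0.14. ATF3, a stress-induced transcription factor, had 27.2, 46.2 and 6.1 CPM at 20, against 14.8, 49.8 and 3.39 CPM at 0. It was higher in replicates 1 and 3 and lower in replicate 2, with a log2 difference of 0.41 ± 0.20.

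The targets of the drug overlapped between the time points. TOP2A, the topoisomerase II of dividing cells, had 362, 511 and 366 CPM at 20, against 373, 379 and 421 CPM at 0. Its log2 difference was 0.08 ± 0.14, and without the second library of time point 20 it was −0.16. TOP2B, the form also made in resting cells, had 141, 179 and 150 CPM at 20, against 146, 129 and 174 CPM at 0, and its log2 difference was 0.09, or −0.14 without that library. METTL3, the catalytic subunit of the m6A RNA methyltransferase, had 46.7, 60.7 and 38.2 CPM at 20, against 51.6, 54.4 and 41.2 CPM at 0, with a log2 difference of −0.03 ± 0.11, or −0.12 without that library. At an unadjusted p below 0.05, 0 of the 22 genes of the m6A machinery were lower and 0 higher. The shares of all tested genes were 1.9% and 0.825%. The m6A list median was −0.03, and without the second library it was −0.14. Without that library 3 of the 22 were lower and 0 higher, beside 490 lower and 495 higher of all 14186 genes.

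Proliferation genes stood above 0 without exception in the model, 30 of 30, where 49.7% of all tested genes were below 0. Their median was 0.11, or 0.03 with housekeeping scaling. At an unadjusted p below 0.05, 2 were higher, beside 0.825% of all tested genes. One was BIRC5, which encodes the mitotic protein survivin, with 169, 164 and 129 CPM at 20, against 144, 137 and 110 CPM at 0. The other was PCNA, the clamp of DNA polymerase, with 224, 292 and 232 CPM at 20, against 205, 206 and 228 CPM at 0. For PCNA the log2 difference was 0.22, or 0.10 without the second library of time point 20. Pair 2 again gave the largest median, 0.26, beside 0.03 and 0.04 in pairs 1 and 3. Without the second library of time point 20, 13 of the 30 were below 0 and the median was 0.04.

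The pairs differed in their spread and in a trend with exon length. The standard deviation of the log2 difference over 10814 genes was 0.237 in pair 1, 0.345 in pair 2 and 0.223 in pair 3. Across these genes the differences of pair 2 correlated negatively with those of pair 1 (r = −0.25) and of pair 3 (r = −0.22), and those of pairs 1 and 3 with each other at r = 0.21; genes share libraries and are not independent. When genes were divided by total exon length into 5 groups of equal size, the median in pair 1 was 0.09 in the shortest group and −0.04 in the longest. Pair 3 had 0.09 and −0.10, and pair 2 had −0.05 and 0.06. The order was thus opposite in pair 2.

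**Figure D5:**
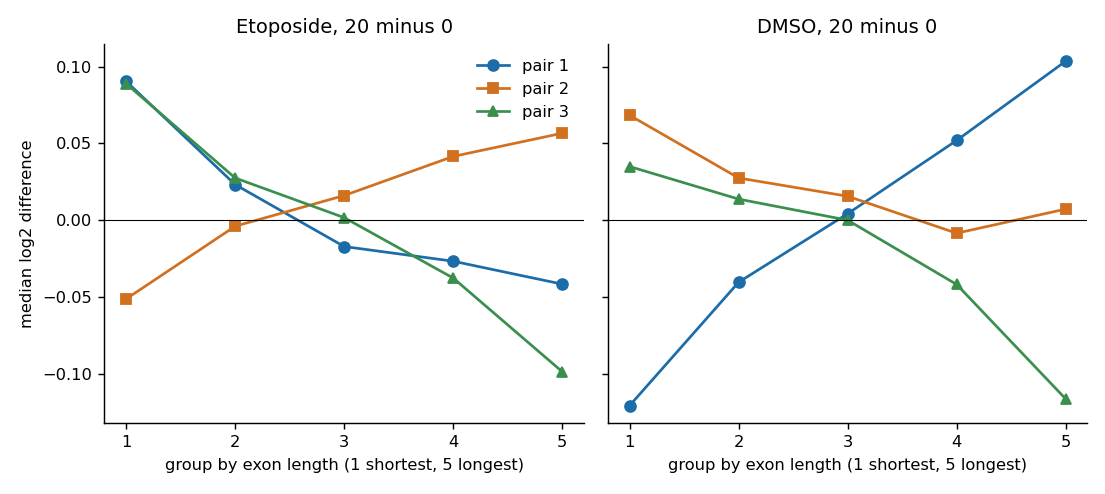
Median log2 difference, time point 20 minus 0, in 5 groups of total exon length in each replicate pair, etoposide on the left and DMSO on the right. In the etoposide arm pairs 1 and 3 decline with length and pair 2 increases; in the DMSO arm pair 1 increases and pair 3 declines.

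Lists also differ in exon length. The 84 ribosomal protein genes tested, with a median exon length of 3056 bases, had a median log2 difference of 0.10. It was 0.03 with the housekeeping and ribosomal scaling, which itself uses these genes. Their medians in pairs 1 to 3 were 0.19, 0.01 and 0.10. Of the 84, 3 were below 0 in the model, beside 49.7% of all tested genes. The 431 ZNF genes, at 5411 bases, had a median of −0.07, or −0.15 with housekeeping scaling, and 287 of them were below 0. At an unadjusted p below 0.05, 18 ZNF genes were lower and 2 higher, beside 1.9% and 0.825% of all tested genes. The ZNF median was −0.15 without the second library of time point 20, with 39 lower and 7 higher, beside 490 lower and 495 higher of all 14186 genes. Over all tested genes the median length was 4796 bases. The 8 nuclear noncoding RNAs had the longest median of the lists, 17720 bases, and median log2 differences of −0.46, −0.09 and −0.17 in pairs 1 to 3. The 171 genes from the DMSO arm had a median exon length of 3138 bases and a median log2 difference of −0.14. That length lies in the second of the 5 length groups, 3114 to 4553 bases, whose median was 0.02. The shortest group had 0.05. The part of exon length in any list's value was not tested.

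In the DMSO arm over the same interval, 0 genes were lower (0%) and 0 higher (0%) by the test, with 392 at an unadjusted p below 0.05 (2.76%). Its time point 0 replicate 2 had 1.42% of counts in genes annotated as antisense, against 0.217% to 0.253% in the other libraries of the series. The difference between the arms in the change over the interval, tested as an interaction, gave 0 calls lower (0%) and 0 higher (0%), with 335 genes at an unadjusted p below 0.05 (2.36%).

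For single genes, the values of the 2 arms over this interval stand side by side. ZFP36L1 had a log2 difference of −0.48 with DMSO and the difference between the arms was 0.05 ± 0.16; DDIT4 had −0.72 with DMSO and a difference between the arms of 0.02 ± 0.23. GADD45A, AEN and CDKN1A had −0.05, −0.08 and −0.12 with DMSO, with differences between the arms of 0.37 ± 0.17, 0.37 ± 0.16 and 0.32 ± 0.14. CDC25C had −0.24 with DMSO and a difference of 0.78 ± 0.23. MIRLET7IHG, host of let-7i, had 29.4, 27.4 and 26.9 CPM at 20, against 36.8, 34.8 and 37.8 CPM at 0 with etoposide, a log2 difference of −0.39 ± 0.12, beside 0.25 with DMSO. The difference between the arms was −0.63 ± 0.17. None of these passed the threshold, since the smallest adjusted p of the interaction was 0.9998 by edgeR.

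Further genes with small p and groups that did not overlap were ZCCHC3, MAB21L1 and PNRC1. They were named after their values were seen, as were EIF4A1, ZFP36, SOCS3, MIRLET7IHG, SNORA73B and the genes given by identifier above. ZCCHC3, a zinc finger protein of nucleic acid sensing, had 24.6, 16.3 and 20.9 CPM at 20, against 29.8, 34.5 and 26.6 CPM at 0. MAB21L1, a developmental gene of the eye, had 71.9, 64.7 and 77.6 CPM at 20, against 97.1, 99.8 and 94.4 CPM at 0. PNRC1, a nuclear receptor coactivator, had 21.5, 15.5 and 22.7 CPM at 20, against 33.5, 25.9 and 29.2 CPM at 0. Their log2 differences were −0.55 ± 0.15, −0.44 ± 0.12 and −0.58 ± 0.16; that of ZCCHC3 was −0.35 without the second library of time point 20. PER2, a repressor of the circadian clock, had 4.03, 2.58 and 4.86 CPM at 20, against 8.22, 6.93 and 5.43 CPM at 0, and 7.91, 4.59 and 6.31 CPM at 40. Its log2 difference was −0.85 ± 0.23 at 20 against 0 and 0.72 at 40 against 20.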

How the data were processed

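RNA was extracted and made into stranded mRNA libraries, per the labels' protocols. The authors deposited whole-number read counts for each gene, not normalised; bcl2fastq, HISAT2 and featureCounts with GRCh38 (hg38) are named, per the submitters' processing notes. Not given in the sources used here: versions, annotation release, strand setting and treatment of reads with several matches. Per the file headers, the columns of replicate 3 carry a suffix that the others lack. Each table lists 58051 Ensembl genes, of which 57447 matched GENCODE release 29; the 37 mitochondrial genes had 0 counts.

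Counts were tested with edgeR 4.0.16 in R 4.3.3: TMM factors (0.978 to 1.02), filterByExpr (14186 genes, 99.8% of counts), 6 groups and a replicate block, robust quasi-likelihood fit, adjusted p below 0.05. SE were derived from the F statistic. The script was tested on simulated data with known changes. Levels are CPM on TMM-adjusted totals; pair differences used log2(CPM + 0.5). Floors (3 counts) and intervals of shares cover counting error only. The p-values measure the spread between samples called independent replicates.

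The block is in the model because the labels give the numbers and same-numbered libraries deviated together. Correlations over genes, taken after each gene's group mean was subtracted, were 0.411 to 0.959 in 45 same-numbered pairs, all above a minimum of 0.1. The deviations of a group then sum to 0, which pulls pairs of different numbers towards negative values. In 90 pairs of different numbers they were −0.873 to 0.767. The ranges overlapped, so the correlations alone do not settle the pairing. The comparison, gene lists and tests were chosen with earlier results of these data known. Genes were to be named as the 15 largest called falls and 8 largest called rises, up to 4 members per list by smallest p, 7 check genes and up to 8 genes called in the interaction; with 0 calls the first and last gave none, and the text names fewer than the rule gives. Genes added after their values were seen are marked as such; CDKN1B meets the rule and was also looked at after its values were seen.

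Alternatives were the fit without the block, the 6 libraries alone, DESeq2 size factors, library totals, housekeeping and ribosomal scaling, no filter, DESeq2 1.42.0, limma-voom 3.58.1 and leaving out libraries. Lists were described by counts and medians, with no set test.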

Additional observations from a re-analysis of the deposited data

How the results depend on the processing

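The call of no gene in etoposide 20 against 0 depended on the fit. Fitting the 6 libraries alone called 3 genes lower, and no filter called 6 lower and 1 higher. DESeq2 called 1 higher (GFRA3, named after its values were seen, which had 0 counts in all but 1 of the 6 libraries). The 6 lower without a filter included the retinal pigment epithelium marker BEST1 (−0.93) and the noncoding RNA MALAT1 (−0.50). Their adjusted p were 0.047 and 0.031 by edgeR. BEST1 had 2.93, 0.516 and 5.98 CPM at 20, against 5.48, 10.2 and 3.99 CPM at 0. Both were named after their values were seen. Without the replicate block 0 genes were called and 142 had an unadjusted p below 0.05, against 387 with it. The list of 171 genes lower in DMSO at 40 had 60 members when chosen without the block, and their median at etoposide 20 against 0 was −0.18, against −0.14. Leaving out libraries called 0 genes in either direction. Without the second library of time point 20, 1001 genes (496 lower, 505 higher) had an unadjusted p below 0.05.

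For DMSO 20 against 0, no filter called 348 genes lower, DESeq2 12, and leaving out libraries 0 to 5. Etoposide 40 against 20 gave 7 genes lower without the replicate block, 34 with its own libraries alone, 8 without both the block and the second library of time point 20, and 21 to 77 when libraries were left out (69 in all); of single libraries, leaving out those of time point 40 gave 37, 45 and 38 and replicate 3 of time point 20 gave 42. The difference between arms gave 74 genes without a filter and 1 by DESeq2. Setting the block and that second library aside together was chosen after seeing the data. The causes were not tested.

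Of 51 genes named or considered, 46 kept the sign of their log2 difference in all 18 alternatives. Many of the 51 were chosen by small p or after their values were seen. The alternatives refit the same counts or parts of them, so this share does not measure reproducibility. Leaving out libraries gave −0.1142 to 0.0178 for MYC, −0.1596 to 0.2166 for TOP2A, −0.1436 to 0.2312 for TOP2B and −0.1186 to 0.0427 for METTL3, with the signs of MYC, TOP2A and TOP2B turned when the second library of time point 20 or all of replicate 2 was left out. METTL3 turned without replicate 1 or replicate 3 of time point 20 or of all groups. With the second library and the block left out together, the value was 0.09292 for MYC, −0.1045 for TOP2A, −0.0434 for TOP2B and −0.4336 for ATF3.

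At 5 CPM or more, log2 differences under 0.28 lay within the 95% interval of the median gene, before any adjustment for the number of genes; single genes vary around this, and with the adjustment larger differences were not called either.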

Other observations

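Long intergenic noncoding RNAs, 398 of them tested at low levels with a median of 1.79 CPM, had a median log2 difference of −0.07 at 20 against 0, below 0 in each pair (−0.08, −0.07 and −0.07). Of these, 26 were lower and 10 higher at an unadjusted p below 0.05, beside 191 and 87 of 12177 protein-coding genes, whose median was 0.00. The lower median was not particular to this type. Processed transcripts had −0.08, transcribed unprocessed pseudogenes −0.07 and antisense genes −0.06, each also below 0 in each pair. Processed pseudogenes had 0.05 and unprocessed pseudogenes 0.00.

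YWHAE, which encodes a 14-3-3 protein, had 302, 338 and 46.6 CPM at 20, against 285, 298 and 2.80 CPM at 0. In the other libraries of replicate 3 it had 1.77 to 4.45 CPM, so the third library of time point 20 differed from the rest of its number. The model's log2 difference was 1.43 ± 0.75, with an adjusted p of 0.999 by edgeR; without the filter on low counts YWHAE was the 1 gene called higher, with an adjusted p of 4.51e-25 by edgeR. It was named after its values were seen.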
